A study of Mus musculus with 9 samples.

Results

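The insulin-like growth factor (IGF) system was examined in the mouse choroid (CH), retinal pigment epithelium (RPE) and photoreceptors (PR) through 10 genes, of 31829 gene names on the array. The members are the ligands Igf1 and Igf2, the receptors Igf1r and Igf2r, and the binding proteins Igfbp2, Igfbp3, Igfbp4, Igfbp5, Igfbp6 and Igfbp7. The rule that defines them used gene symbols and no measured value, but the list was chosen with earlier results of these data known. Of the probes that are not controls, 15 carry one of these names, 5 of them for Igf1 and 2 for Igfbp2. All mice were female C57BL/6 animals, 6 months of age within a range of 2 weeks per the labels, and no treatment or allele separates the groups. The study's methods name the J substrain and give a somewhat younger age than the labels. The 3 tissues were laser dissected, each sample from a whole eye, and per the study's methods the choroid was taken after removal of the RPE. For each tissue, 3 samples were hybridised in Cy5 on dual-colour Agilent arrays. A common reference of choroid/RPE RNA from mice of the same strain, sex and age was hybridised in Cy3 on every array, the same way round. Each value below is the log2 ratio of Cy5 to Cy3, so it gives a level relative to that reference at one probe. Values of different genes are therefore not set against each other as expression levels. A gene was called between tissues when its fold change (FC) was above 2.5 and its Benjamini-Hochberg (B-H) adjusted p-value, from limma over all 39429 probes, was below 0.01. Of several probes of a gene, the one with the highest mean Cy5 signal is the reported probe.

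IGF1 and IGF2 are secreted peptides that bind the tyrosine kinase receptor encoded by Igf1r, which signals through the insulin receptor substrates to the PI3K-AKT and MAP kinase branches. Igf2r, the cation-independent mannose 6-phosphate receptor, takes up IGF2 and carries it to lysosomes, and it also sorts lysosomal enzymes. The binding proteins hold IGFs in the extracellular space, prolong or limit their access to the receptor, and are cut by dedicated proteases. In the eye, IGF signalling has been studied mainly for its part in vessel growth and in the survival of retinal cells.

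The arrays carried the markers of the tissues they are labelled with, with some of the neighbouring layers. Of 8 RPE markers, 6 were called higher in RPE than CH and 7 higher than in the PR, and all 8 rod markers were called lower in RPE than PR. The median log2 ratio of 8 endothelial markers ranged from 1.36 to 1.87 in CH and from 1.38 to 1.52 in RPE, against -1.99 to -1.81 in PR, so the CH and RPE arrays overlapped. All 7 measured fibroblast markers were called lower in RPE than CH, with list medians of 1.18 to 1.43 in the CH, -1.26 to -0.60 in the RPE and -4.46 to -3.97 in the PR. In whole layers, fewer cells of a type and less RNA per cell cannot be told apart. Lens markers, from a tissue that does not adjoin these layers, varied between arrays of the same tissue, and 0 of 6 were called in any comparison. Their list median ranged from -2.56 (replicate 3) to 2.10 in the CH, from 0.13 to 4.40 (replicate 3) in the RPE and from 0.00 to 1.93 in the PR. Without CH replicate 3 the number of the 10 genes called was 4 between RPE and CH, 6 between RPE and PR and 8 between CH and PR, and without RPE replicate 3 it was 3, 5 and 8, beside 3, 6 and 8 with no array left out. Between 62.0% and 71.2% of probes were well above background on 8 arrays, and 91.7% on RPE replicate 2.

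The first 30 bases of each Igf1 probe are shown because the probes of this gene did not give the same result. Capitals mark the stretch, 40 bases long in the whole probes, that 2 of them share. Positions are on mm9, chromosome 10, in the order of the genome.
A_55_P2085979, chr10:87378456-87378515: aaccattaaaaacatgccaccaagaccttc
A_55_P2085984, chr10:87393561-87393620: cctaccaaataacaataataAGTCCAATAA
A_55_P2031631, chr10:87393581-87393640: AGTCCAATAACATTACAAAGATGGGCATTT
A_55_P2031636, chr10:87395924-87395983: agaaatgtaaatggaataagaggtcagctg
A_55_P2085974, chr10:87399581-87399640: ctcctgattgtatttgaagtggttattcaa
The files assign the first of these to the transcript NM_184052 and the other 4 to NM_010512, both named Igf1. A_55_P2031631 is the reported probe.

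Igf1, Igfbp5 and Igfbp6, 3 of the 10 members, were called lower in RPE than CH, a direction in which 1.74% of all genes were called. The Igfbp5 probe was saturated on all 3 CH arrays, and on the Cy5 signal alone its difference was not called. The Igf1 call was lost with the mean over its 5 probes. By limma, none of the 10 was called higher in RPE than CH (0.179% of all genes). At an unadjusted p-value under 0.05, 1 of them, Igfbp2, was higher in RPE than CH and 5 were lower. Against the PR, 6 of 10 members were called higher in the RPE (10.9% of all genes) and 8 of 10 higher in the CH (12.7% of all genes). No member was called lower in RPE than PR (5.19% of all genes) or lower in CH than PR (6.01% of all genes). At an unadjusted p-value under 0.05, 9 were higher and 0 lower in each of these comparisons with the PR. The shares of all genes refer to the calls, and none is given for the unadjusted limit. The median difference of the members was -0.47 for RPE minus CH, 1.99 for RPE minus PR and 2.51 for CH minus PR, beside medians over all genes between -0.05 and 0.03. The comparisons share arrays, so these counts are not independent of each other.

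**Figure D1:**
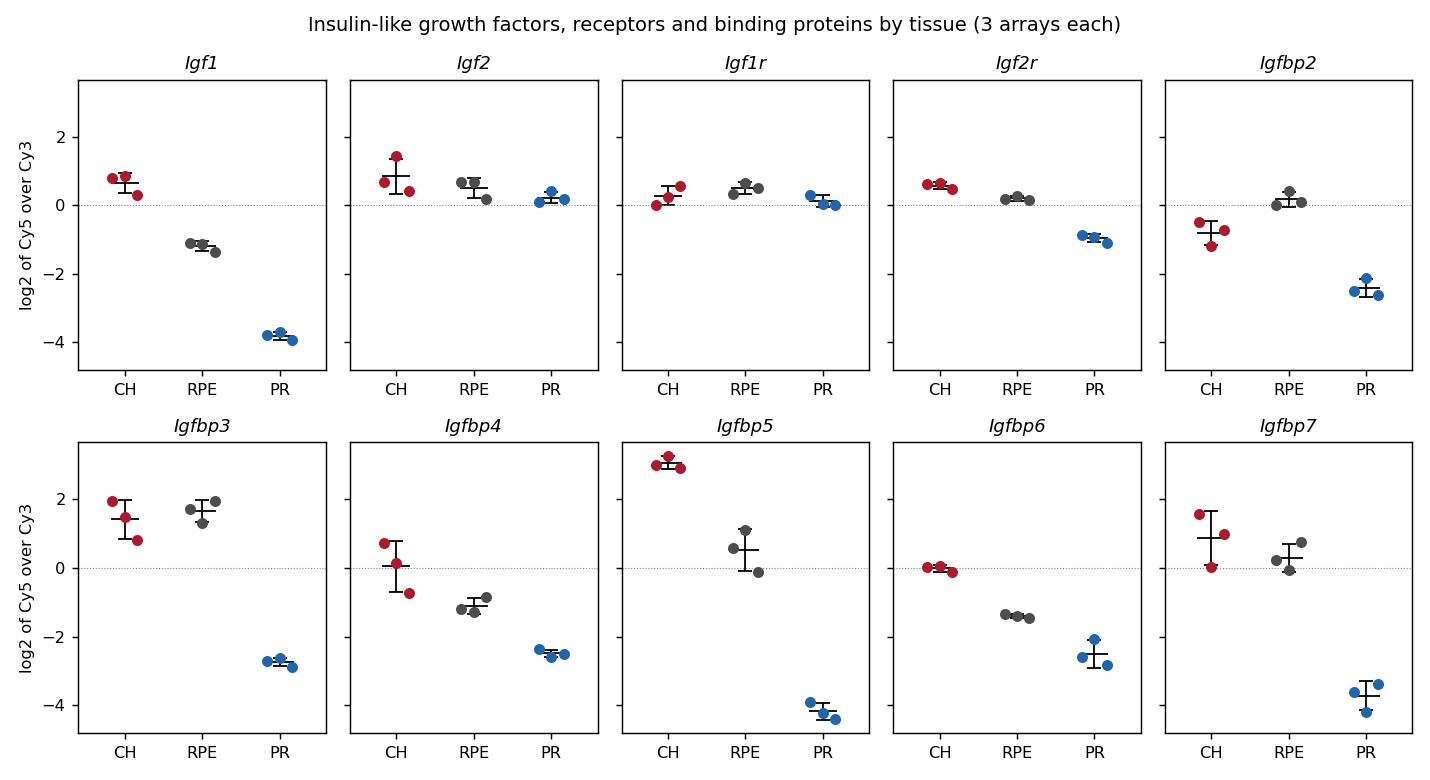
The log2 ratio of Cy5 (tissue) to Cy3 (common reference) at the reported probe of each of the 10 genes, with 1 point per array, 3 arrays per tissue, and the mean ± SD as a bar. In Igf1, Igfbp5 and Igfbp6 the CH, RPE and PR arrays form separate steps, in Igfbp3 and Igfbp7 the CH and RPE arrays overlap well above the PR arrays, and in Igf2 and Igf1r the tissues lie close together.

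Among the ligands, Igf1 decreased stepwise from the CH through the RPE to the PR. At the reported probe the log2 ratio was 0.79, 0.85 and 0.30 on the CH arrays, -1.10, -1.12 and -1.36 on the RPE arrays and -3.79, -3.70 and -3.93 on the PR arrays. No array of one tissue overlapped with an array of another. Igf1 was 3.59-fold lower in RPE than CH (log2 difference -1.84, SE 0.15, adjusted p = 0.000121, limma). It was 6.12-fold higher in RPE than PR (adjusted p = 4.23e-07) and 22.0-fold higher in CH than PR (adjusted p = 1.15e-08). The RPE minus CH difference was -1.78 within the slide that held CH and RPE replicates 1 and 3, and -1.97 within the slide that held replicate 2 of all tissues.

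The other Igf1 probes split into those that showed this decline and those that did not. A_55_P2085984, which overlaps the reported probe, gave nearly the same differences, with -1.82 for RPE minus CH, 2.77 for RPE minus PR and 4.59 for CH minus PR, and was called in all 3 comparisons. A_55_P2085974, farthest along the chromosome, gave -1.20 for RPE minus CH (2.30-fold, adjusted p = 0.00158, under the FC limit) and was called against the PR, with 2.02 for RPE minus PR and 3.22 for CH minus PR. The remaining probes were called in no comparison. A_55_P2031636, which lies between the others, had -0.04 for RPE minus CH and 0.44 for CH minus PR, and A_55_P2085979, of the transcript NM_184052, had -0.33 and 0.52. Both were well above background on all 9 arrays. With the mean over the 5 probes in place of the reported one, the RPE minus CH difference was -1.05 and no longer passed the FC limit.

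**Figure D2:**
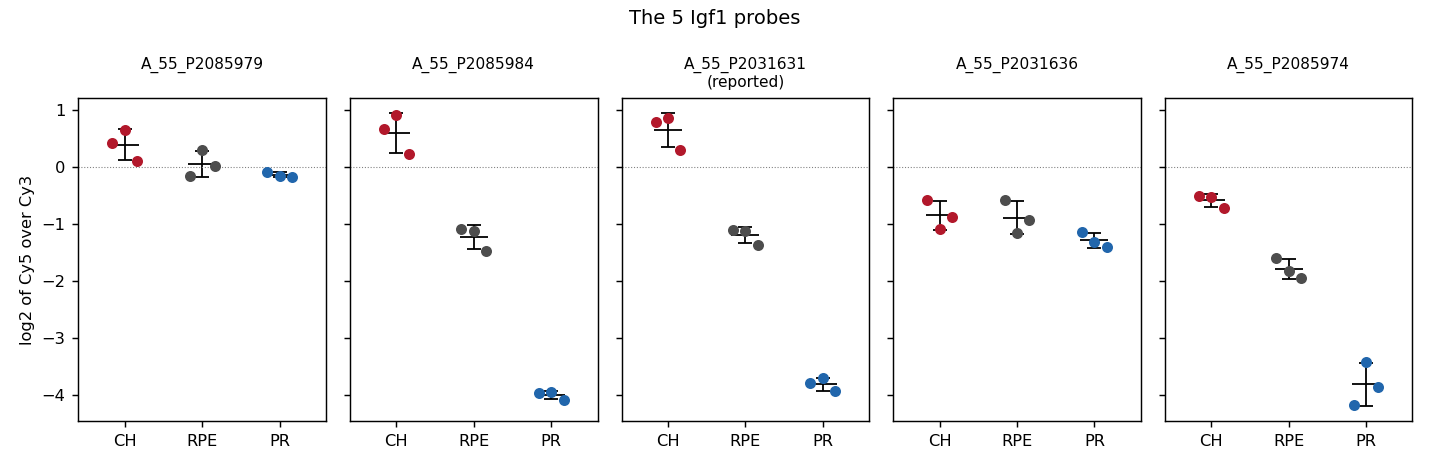
The log2 ratio of Cy5 to Cy3 at the 5 probes named Igf1, ordered by position along chromosome 10, with 1 point per array and the mean ± SD as a bar. A_55_P2085984, A_55_P2031631 and A_55_P2085974 fall from CH to RPE to PR, with PR means of -4.00, -3.81 and -3.81, while the PR means of A_55_P2085979 and A_55_P2031636 are -0.13 and -1.28.

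Igf2, the ligand that is imprinted and mostly fetal in the mouse, was called in no comparison. Per array, the log2 ratio was 0.67, 1.42 and 0.43 in the CH, 0.68, 0.68 and 0.18 in the RPE and 0.09, 0.40 and 0.17 in the PR. The CH arrays lay above the PR arrays, by 0.62 (95% interval 0.07 to 1.16, adjusted p = 0.0550), and the RPE arrays overlapped with both. The probe was dim, with raw Cy5 signals between 266 and 1066, and on 1 RPE array it did not stand well above background.

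Of the receptors, Igf1r was called in no comparison and Igf2r in 1. Igf1r, the signalling receptor, had log2 ratios of 0.02, 0.25 and 0.57 in the CH, 0.34, 0.66 and 0.51 in the RPE and 0.31, 0.04 and 0.00 in the PR. The arrays of the CH overlapped with those of both other tissues, and the RPE arrays lay just above the PR arrays. The difference was 0.22 (95% interval -0.12 to 0.57) for RPE minus CH, 0.39 (0.04 to 0.74) for RPE minus PR and 0.16 (-0.18 to 0.51) for CH minus PR. The probe was bright, with raw Cy5 signals between 34888 and 88536, and was well above background on all 9 arrays.

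Igf2r, the mannose 6-phosphate receptor, was measured with 10 spots per array and had the smallest standard error of the members (0.10). Log2 ratios of 0.61, 0.64 and 0.47 were found in the CH, 0.18, 0.26 and 0.15 in the RPE and -0.86, -0.93 and -1.09 in the PR. The 3 tissues did not overlap. Igf2r was 2.89-fold higher in CH than PR (adjusted p = 5.63e-07) and was called there. It was 2.23-fold higher in RPE than PR (adjusted p = 5.04e-06), under the FC limit, and the RPE minus CH difference was -0.37 (adjusted p = 0.0213).

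The binding proteins gave several orders of the tissues. All 6 were called higher in CH than PR, and 5 of 6, all but Igfbp6, were called higher in RPE than PR. Between RPE and CH, Igfbp5 and Igfbp6 were called lower in the RPE, and Igfbp2 was the one member with a positive difference at an adjusted p-value below 0.01.

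Igfbp2, a binding protein abundant in the nervous system and in serum, was highest in the RPE. Its log2 ratio at the reported probe was -0.50, -1.19 and -0.72 in the CH, 0.01, 0.43 and 0.11 in the RPE and -2.49, -2.13 and -2.62 in the PR, with no overlap between tissues. It was 1.98-fold higher in RPE than CH (log2 difference 0.98, SE 0.20, adjusted p = 0.0065), which is under the FC limit, so it was not called. Over the alternatives and the arrays left out, this difference stayed between 0.77 and 1.13. Its adjusted p-value (limma) was 0.0197 with the Feature Extraction log ratio and 0.0274 with median centring, and reached 0.0516. The second probe, 76 bases upstream, gave 1.20 (2.30-fold, adjusted p = 0.00475). Igfbp2 was 6.03-fold higher in RPE than PR (adjusted p = 2.55e-06) and 3.05-fold higher in CH than PR (adjusted p = 6.38e-05). The RPE minus CH difference was 0.67 within the slide of replicates 1 and 3 and 1.61 within the slide of replicate 2.

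Igfbp3, the main carrier of IGFs in serum, overlapped between CH and RPE and lay far lower in the PR. Its log2 ratio was 1.95, 1.50 and 0.82 in the CH, 1.71, 1.31 and 1.96 in the RPE and -2.71, -2.64 and -2.88 in the PR. Between RPE and CH the difference (RPE minus CH) was 0.24 (95% interval -0.35 to 0.83) and became -0.06 without CH replicate 3. Igfbp3 was 21.2-fold higher in the RPE (adjusted p = 4.69e-07) and 18.0-fold higher in the CH (adjusted p = 5.32e-07) than in the PR.

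Igfbp7, a secreted protein of blood vessels that binds IGFs weakly, also lay far lower in the PR than in both other tissues. Its log2 ratio was 1.59, 0.04 and 1.00 in the CH, 0.23, -0.06 and 0.74 in the RPE and -3.62, -4.19 and -3.37 in the PR. The RPE minus CH difference was -0.57 (95% interval -1.41 to 0.27), and it was -0.99 without CH replicate 2 and -0.22 without CH replicate 1. Igfbp7 was 16.3-fold higher in the RPE (adjusted p = 1.04e-05) and 24.3-fold higher in the CH (adjusted p = 3.28e-06) than in the PR. Replicate 2 of each tissue, on 1 slide, was the lowest of its 3 arrays. Both Igfbp3 and Igfbp7 overlapped between CH and RPE, as the endothelial markers did, and the part of endothelial RNA in their values was not tested.

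Igfbp4, which is cleaved by the protease PAPP-A, had log2 ratios of 0.74, 0.15 and -0.74 in the CH, -1.20, -1.27 and -0.84 in the RPE and -2.37, -2.58 and -2.52 in the PR. The CH arrays spread widely but did not overlap with the RPE arrays. The RPE minus CH difference was -1.15 (adjusted p = 0.0229) and was not called. Without CH replicate 3 it was -1.55 (adjusted p = 0.000795) and passed, and without CH replicate 1 it was -0.81 (adjusted p = 0.0536). Igfbp4 was 5.80-fold higher in CH than PR (adjusted p = 5.47e-05) and 2.61-fold higher in RPE than PR (adjusted p = 0.00353). The latter call lies near both limits, and it was lost without RPE replicate 1 (adjusted p = 0.0105), RPE replicate 3 (0.0159), PR replicate 2 (0.0122) or PR replicate 3 (0.0135). It was also lost with the slide as a block (adjusted p = 0.0631), with the Feature Extraction log ratio (0.0227), with median centring in place of loess (0.0161), on the Cy5 signal alone (0.0151) and, at a log2 difference of 1.24, in the authors' series table.

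Igfbp6, which prefers IGF2 to IGF1, declined in steps as Igf1 did. Its log2 ratio was 0.02, 0.06 and -0.12 in the CH, -1.34, -1.41 and -1.45 in the RPE and -2.61, -2.06 and -2.84 in the PR, with no overlap. It was 2.61-fold lower in RPE than CH (adjusted p = 0.000686) and 5.61-fold higher in CH than PR (adjusted p = 1.10e-06). The log2 difference of 1.10 between RPE and PR (adjusted p = 0.000425) was under the FC limit, which it passed without PR replicate 2 (log2 difference 1.32). The RPE minus CH difference was -1.39 on the log2 scale, near the FC limit, which is 1.32 in size on that scale.

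Igfbp5, a binding protein of bone, muscle and connective tissue that attaches to extracellular matrix, had ratios that did not overlap between tissues. Its log2 ratio was 3.01, 3.28 and 2.90 in the CH, 0.59, 1.11 and -0.11 in the RPE and -3.91, -4.23 and -4.39 in the PR. The fit gave a difference of -2.53 for RPE minus CH (adjusted p = 0.000330), 4.71 for RPE minus PR (adjusted p = 3.63e-07) and 7.24 for CH minus PR (adjusted p = 1.78e-08), and all 3 were called. The Cy5 signal of the probe was saturated on all 3 CH arrays, so the CH level is only a bound. From the mean log2 Cy5 signals after loess and Aquantile normalization (18.35 in the CH, 17.79 in the RPE and 14.14 in the PR), Igfbp5 was at least 1.48-fold higher in CH than RPE and at least 18.5-fold higher in CH than PR. These bounds compare the Cy5 signal between arrays and do not use the ratio to the reference. On that signal the difference between RPE and CH was not called (adjusted p = 0.110, limma).

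The Cy3 signal of Igfbp5 was not constant, although the same reference RNA was put on every array. The raw Cy3 signal was 25023, 18513 and 22821 on the CH arrays, 90534, 73815 and 105813 on the RPE arrays and 214054, 218397 and 203298 on the PR arrays. The Cy5 signal ran the other way, with 640304, 592548 and 641280 in the CH, 431012, 490451 and 335212 in the RPE and 27865, 18007 and 34225 in the PR. After normalization the mean log2 Cy3 signal was 3.03 lower in CH than PR and 1.97 higher in RPE than CH. A Cy3 difference above 1 in size between CH and PR occurred in 0.666% of all genes, and the median of its size over all genes was 0.13. On the Cy5 signal alone the RPE minus CH difference of Igfbp5 was -0.56 (adjusted p = 0.110) and was not called, while RPE minus PR was 3.65 and CH minus PR 4.21. For Igfbp7 the mean log2 Cy3 signal was 0.90 lower in CH than PR and 0.46 lower in RPE than PR. On the Cy5 signal alone the Igfbp7 difference was 3.57 for RPE minus PR and 3.70 for CH minus PR, smaller than the differences of the ratio (4.03 and 4.60). Within the slide of replicate 2 its log2 Cy3 signal was 15.12 in CH, 15.24 in RPE and 15.40 in PR. That of Igfbp5 was 14.99, 16.94 and 18.31 there. The other CH and PR arrays lay on different slides, so slide and tissue cannot be told apart in them. In the other 8 members the Cy3 means of CH and PR differed by -0.22 to -0.02, and for Igfbp3 the raw Cy3 signal stayed between 5079 and 5664 on all 9 arrays. The cause of the Cy3 differences was not tested.

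**Figure D3:**
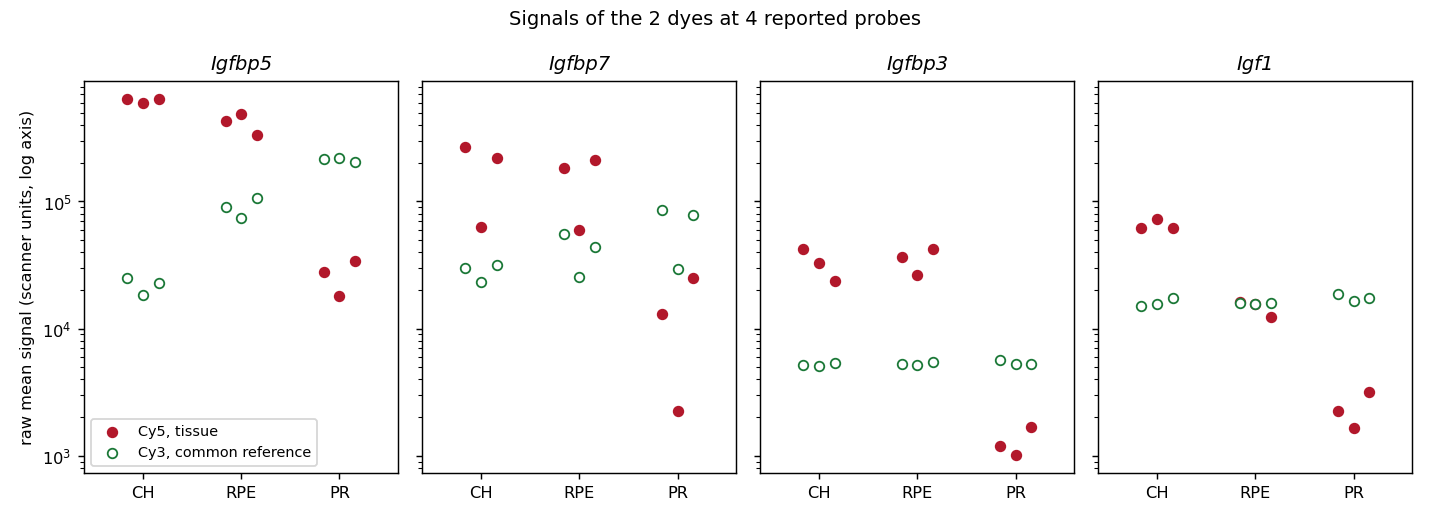
Raw mean signals, in scanner units on a log axis, of the tissue channel (Cy5, filled) and of the common reference (Cy3, open) on each of the 9 arrays at the reported probes of Igfbp5, Igfbp7, Igfbp3 and Igf1. The Cy3 signal of Igfbp5 climbs from 18513 on a CH array to 218397 on a PR array while its Cy5 signal falls, whereas the Cy3 signals of Igfbp3 and Igf1 stay level.

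Igf1, Igfbp5 and Igfbp6 were called lower in RPE than CH, and so were all 7 fibroblast markers. In this direction 1.74% of all genes were called, and a link between the members and these markers was not tested. The summed Cy5 signal of these 7 markers after normalization ranged from 940609 to 1051241 in CH, from 287732 to 391721 in RPE and from 47235 to 61208 in PR. All 7 were well above background on every array. The fibroblast marker Dcn was saturated on all 3 CH arrays and on no other array, so the CH sums are capped. In addition, 4 of 6 pigment cell markers and 3 of 7 macrophage markers were called lower in RPE than CH. The part of these cell types in the values of Igf1, Igfbp5 and Igfbp6 was not tested. Igfbp2 was higher in RPE than CH, though under the FC limit, and 6 of the 8 RPE markers were called higher. A link between Igfbp2 and these markers was not tested.

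**Figure D4:**
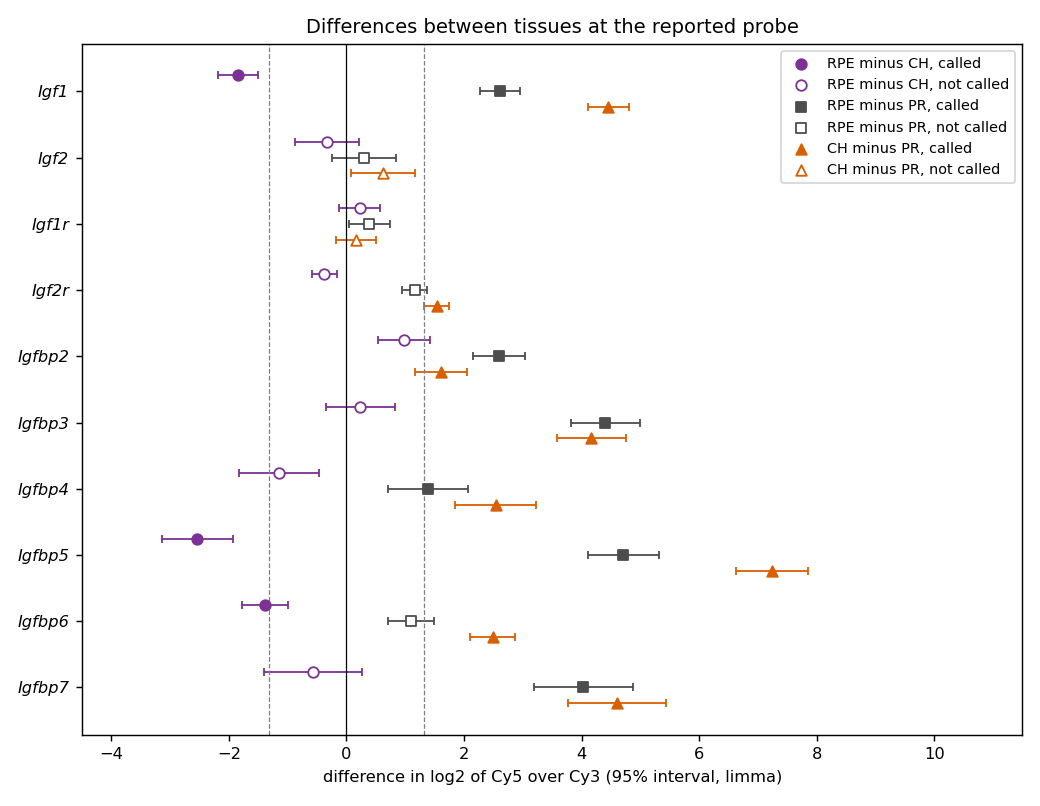
Differences in log2 of Cy5 over Cy3 between tissues at the reported probe of each gene, with 95% intervals from limma, filled where called. Dashed lines mark an FC of 2.5. RPE minus CH is filled for Igf1, Igfbp5 and Igfbp6 and lies right of 0 by 0.98 for Igfbp2. CH minus PR is filled for all genes but Igf2 and Igf1r.

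In 2 pairs of neighbouring binding protein genes, with no other gene between them in the RefSeq table, the tissues came in different orders. The reported probe of Igfbp2 (chr1:72898813-72898872, mm9) and that of Igfbp5 (chr1:72904829-72904888) lie 5956 bases apart. Igfbp2 was 1.98-fold higher in RPE than CH, under the FC limit, and Igfbp5 was called lower. The Igfbp5 probe was saturated on all 3 CH arrays. On the Cy5 signal alone its RPE minus CH difference was -0.56 (adjusted p = 0.110, limma) and was not called. On chromosome 11, the probe of Igfbp1, which is not among the 10 members, ends 4092 bases before that of Igfbp3 (chr11:7106594-7106653). Igfbp1, a binding protein regulated by insulin, had mean log2 ratios of -0.53 ± 0.06 in the CH, -0.46 ± 0.07 in the RPE and 2.09 ± 0.41 in the PR (SD, n = 3 each). Its probe was well above background on all 3 PR arrays, on 1 RPE array and on no CH array, so the means of the CH and RPE are not firm levels. Igfbp1 was called lower in RPE than PR (adjusted p = 1.20e-06), and it was at least 5.08-fold lower in CH than PR (adjusted p = 7.81e-07). Igfbp3 was called higher in both the RPE and the CH than in the PR.

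Promoter sequence from RefSeq (GRCm38.p6) is shown for the 3 members called lower in RPE than CH and for Igfbp2, which differed the other way. Each runs from 250 bases before to 50 bases after the annotated start, 5′ to 3′ on the strand of the gene. Capitals mark, on either strand, the letters TATAAA of the box named after them, the letters CCAAT, and the letters GGGCGG that bind SP1-type factors. For Igfbp2 the first of 2 annotated starts is shown.
Igf1, chr10:87860861-87861160, plus strand: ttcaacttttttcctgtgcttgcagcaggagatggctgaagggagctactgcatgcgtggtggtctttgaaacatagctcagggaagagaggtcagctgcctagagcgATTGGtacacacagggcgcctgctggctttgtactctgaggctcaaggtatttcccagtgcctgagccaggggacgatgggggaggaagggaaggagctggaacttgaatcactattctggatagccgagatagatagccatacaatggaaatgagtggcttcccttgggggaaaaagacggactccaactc
Igfbp5, chr1:72874816-72875115, minus strand: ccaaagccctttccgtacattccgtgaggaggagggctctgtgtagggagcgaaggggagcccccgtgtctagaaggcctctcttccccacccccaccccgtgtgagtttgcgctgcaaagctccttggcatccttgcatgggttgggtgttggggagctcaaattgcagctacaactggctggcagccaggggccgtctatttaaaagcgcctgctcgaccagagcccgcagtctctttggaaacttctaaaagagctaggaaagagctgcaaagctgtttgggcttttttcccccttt
Igfbp6, chr15:102143936-102144235, plus strand: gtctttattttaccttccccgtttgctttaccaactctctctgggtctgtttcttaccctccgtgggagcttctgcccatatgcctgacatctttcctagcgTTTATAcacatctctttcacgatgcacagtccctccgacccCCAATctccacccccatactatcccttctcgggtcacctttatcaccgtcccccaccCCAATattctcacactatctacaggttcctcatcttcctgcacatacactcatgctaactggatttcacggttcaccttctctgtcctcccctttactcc
Igfbp2, chr1:72824230-72824529, plus strand: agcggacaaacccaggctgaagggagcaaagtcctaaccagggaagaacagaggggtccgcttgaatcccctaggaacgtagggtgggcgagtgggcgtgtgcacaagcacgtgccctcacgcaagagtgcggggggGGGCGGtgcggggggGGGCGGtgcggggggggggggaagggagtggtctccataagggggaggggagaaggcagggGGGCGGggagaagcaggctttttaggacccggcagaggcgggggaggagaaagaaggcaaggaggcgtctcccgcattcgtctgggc
The Igf1 window held 1 CCAAT, the Igfbp6 window 1 TATAAA and 2 CCAAT, the Igfbp2 window shown 3 GGGCGG, and the Igfbp5 window none of these letters. The window of the second Igfbp2 start also held none of them. The GC content was 52.3% for Igf1, 56.3% for Igfbp5 and 49.7% for Igfbp6, beside a median of 52.7% over 32851 promoters. For Igfbp2 it was 67.0% at the first start and 57.3% at the second. Of all these promoters 13.6% held TATAAA, 37.4% held CCAAT and 35.7% held GGGCGG. Since the Igfbp5 window held none of these letters, none of these strings was common to the windows of the 3 members called lower in RPE than CH. Other motifs, and variants of these strings, were not searched for.

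For each member, the 2 genes with the most similar centred profile over the 9 arrays were listed, as the root mean square (RMS) distance in log2 units. Igf1 lay closest to Entpd2, which encodes an ectonucleotidase (0.09), and to the purinergic receptor gene P2rx4 (0.11), where the median distance of Igf1 to all probes compared was 1.88. Igfbp3 lay closest to the endothelial genes Robo4 (0.26) and Nrp1 (0.26), against a median of 2.07. Igfbp5 lay closest to the pigment cell gene Tyrp1 (0.39) and to Selenop, which encodes a selenium carrier (0.39), against a median of 3.05. However, Igfbp5 and Tyrp1 were saturated on all 3 CH arrays, so these distances rest on capped values. Igfbp7 lay closest to Ogn, which encodes the matrix protein osteoglycin (0.39), and to the glucose transporter gene Slc2a4 (0.42), against a median of 2.12. Igfbp2 lay closest to Rab37 (0.14) and Ech1 (0.15), against a median of 1.14. Igfbp4 lay closest to Rnase4 (0.19) and Ucp3 (0.21), Igfbp6 to Lrrc14b (0.10) and Lilra5 (0.11), and Igf2r to Gbp6 (0.07) and Cks1b (0.08). Igf2 lay closest to G2e3 (0.10) and Mob3a (0.12), and Igf1r to Csnk2a1 (0.08) and Rnf24 (0.08), with medians of 0.60 and 0.51 for these 2 flat profiles. Among the members themselves the closest pair was Igfbp4 and Igfbp6, at a distance of 0.42. These distances describe the same 9 arrays that gave the differences.

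The remaining genes of the IGF pathway, 40 in all, covered further ligands and carriers, proteases, adaptors and the PI3K-AKT branch, and each was matched to a probe. Between RPE and CH, 2 of 40 were called, both lower in the RPE (1.74% of all genes). Against the PR, 10 were called higher (10.9% of all genes) and 2 lower (5.19%) in the RPE, and 14 were called higher (12.7%) and 1 lower (6.01%) in the CH. The median difference of the 40 genes was -0.01 for RPE minus CH, 0.39 for RPE minus PR and 0.22 for CH minus PR. The count of 2 between RPE and CH fell to 0 without CH replicate 2 and to 1 without CH replicate 1, RPE replicate 1 or RPE replicate 3, and over the alternatives of processing it ranged from 0 to 4.

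Of 4 proteases of binding proteins and their inhibitors, Pappa2, whose product cuts IGFBP3 and IGFBP5, was called in all 3 comparisons. Its log2 ratio was 2.79, 3.48 and 2.35 in the CH, 0.40, 1.66 and 0.93 in the RPE and -2.26, -2.11 and -2.55 in the PR. The difference was -1.88 for RPE minus CH (adjusted p = 0.00386), 3.31 for RPE minus PR (adjusted p = 2.09e-05) and 5.18 for CH minus PR (adjusted p = 6.93e-07). The second Pappa2 probe stood well above background on a single RPE array, so it gives no comparison with the first. Pappa, Stc1 and Stc2 were not called, and the probes of Stc1 and Stc2 were well above background on at most 1 array of each tissue.

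H19, the imprinted non-coding RNA that neighbours Igf2, was the other gene called between RPE and CH. Its log2 ratio was -0.50, 0.04 and -0.57 in the CH, -1.88, -1.87 and -1.76 in the RPE and -2.86, -2.49 and -2.99 in the PR. The RPE minus CH difference was -1.49 (adjusted p = 0.000546), while that of Igf2 was -0.33 and was not called. At its second probe the H19 difference was 0.06 for RPE minus CH and -0.40 for CH minus PR, so the H19 probes did not show the same pattern.

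Igf2bp1, which encodes an RNA-binding protein of Igf2 transcripts, was called higher in RPE than PR by 2.87 (adjusted p = 6.53e-08). Its paralog Igf2bp2 was called lower, by -2.03 (adjusted p = 2.48e-06). Ins2, one of the 2 insulin genes of the mouse, was called higher in RPE than PR by 2.76 (adjusted p = 2.38e-07). Its close paralog Ins1, named for that reason after its values were seen, differed by 2.71, and how far the probes separate the 2 transcripts was not tested. The largest called differences between CH and PR after Pappa2 were those of the adaptor gene Grb14 (3.40, adjusted p = 2.06e-08) and the growth hormone receptor gene Ghr (3.29, adjusted p = 1.75e-08). At the second Ghr probe this difference was smaller, at 1.95, and was also called. Of 10 genes of the PI3K-AKT branch, 1 was called higher in the RPE and 3 in the CH than in the PR, and of 7 AKT targets 1 in each. Beside the 10.9% and 12.7% of all genes called in these directions, the counts of 1 are not a result about either group.

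**Figure D5:**
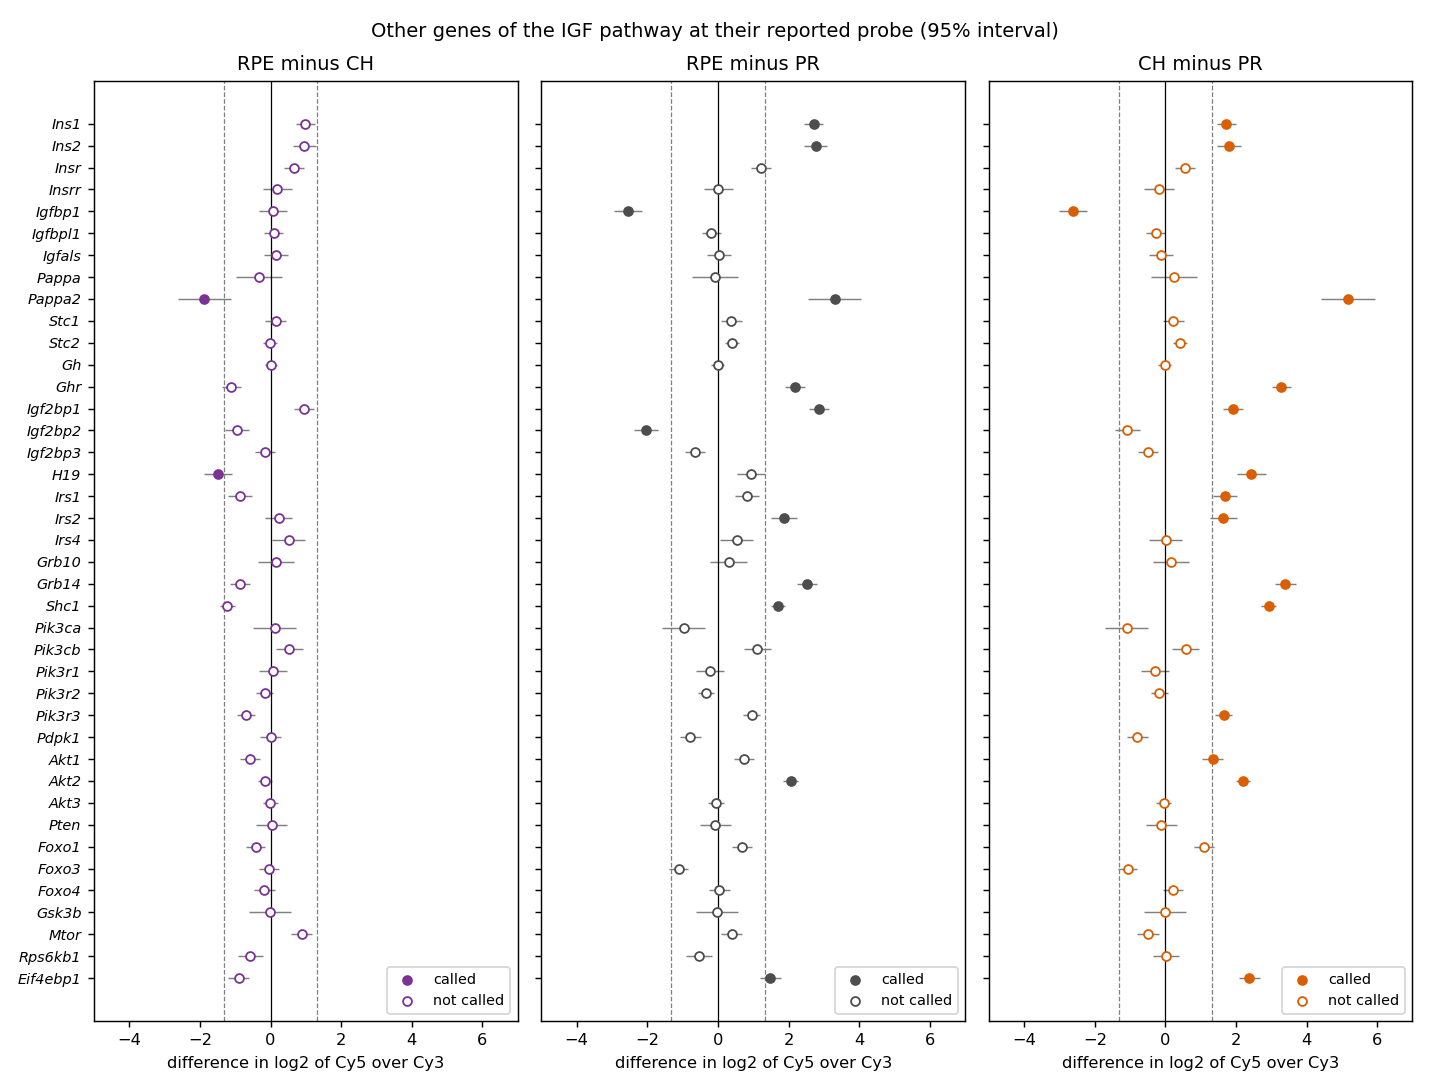
Differences in log2 of Cy5 over Cy3 between tissues for the 40 other genes of the pathway at their reported probe, with 95% intervals from limma, filled where called. Dashed lines mark an FC of 2.5. Pappa2 is filled in all 3 panels, and Igfbp1 lies left of 0 in both comparisons with the PR.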

How the data were processed

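Gene expression was measured in 3 CH, 3 RPE and 3 PR samples on dual-colour Agilent arrays, and replicates were grouped by the labels. Per the labels, Agilent Feature Extraction 9.5.3.1 was used to read the scans. The deposited scanner files hold mean signals and local backgrounds as intensity values, processed signals as intensities, and a log10 ratio of Cy5 to Cy3. A further table by the authors gives the Cy5 channel in log2 units (column medians between 9.38 and 9.55). Its scale was found from its correlation with the log2 Cy5 signal, and its normalization steps are not given in the sources used here. The log10 ratios and the series table served as alternatives only.

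From the intensities, background was corrected with normexp (offset 50), the ratio was normalized within arrays by loess, controls and outlier-marked spots (228 to 586 per array) were left out, and spots of a probe were averaged to 39429 probes. A mean per tissue was fitted over all 9 arrays with limma 3.58.1 in R 4.3.3, with B-H adjustment over all probes. The fit was tested on simulated data. No low-signal filter was applied, and precision is limited by having 3 arrays for each tissue. Whether the eyes came from separate animals is not given in the sources used here, so p-values measure only the spread between these samples.

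The labels give the tissues the same replicate numbers. Deviations of same-numbered arrays correlated between -0.08 and 0.29, so the numbers were not taken as pairs. Arrays lay on 3 slides: PR replicates 1 and 3, CH and RPE replicates 1 and 3, and replicate 2 of all tissues.

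Members and lists were chosen with earlier results of these data known. The text names all members, the pathway genes called between RPE and CH, the 3 called pathway genes with the largest difference in each direction of the other comparisons, and the 2 nearest genes of each member. The markers covered 11 cell types or tissues. Probe positions (mm9) were taken from the scanner files, and promoters and gene names from RefSeq.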

Additional observations from a re-analysis of the deposited data

How the results depend on the processing

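Across 23 alternatives, the 30 differences of the members kept their direction and their side of the limits in 666 instances, lost a call in 13, gained one in 4 and changed sign in 5, all 5 in differences that were not called. The sign changes were Igf1r (-0.049) and Igfbp3 (-0.024) for RPE minus CH with median centring in place of loess, Igfbp3 for RPE minus CH without CH replicate 3 (-0.061, against 0.50 without CH replicate 1, the range over arrays left out), and Igf1r for CH minus PR on the Cy5 signal alone (-0.059) and in the authors' series table (-0.10). In that table the number of members called was 1 in place of 3 between RPE and CH, because Igfbp6 had an adjusted p-value of 0.0101 and Igfbp5 had no value there. Igf1 lost its call between RPE and CH with the mean over its probes, and Igfbp5 lost it on the Cy5 signal alone. With each array left out in turn, between 3 and 4 members were called between RPE and CH, between 5 and 6 between RPE and PR, and 8 between CH and PR. With the replicate number as a block, 3, 6 and 8 members were called in the 3 comparisons, as without it. With the slide as a block Igfbp2 fell below the limit for CH minus PR (1.25), and 3, 5 and 7 members were called. Of the 40 other pathway genes, 2 were called between RPE and CH, but 0 on the Cy5 signal alone, in the series table or with the mean over the probes of a gene, 1 with the Feature Extraction log ratio or with only these tissues in the fit, and 4 with median centring or an FC limit of 2. Over all probes, the Feature Extraction log ratio called 4240 higher and 3573 lower in the RPE than in the PR, against 4062 and 2039, and 4964 higher and 4367 lower in the CH than in the PR, against 4751 and 2496. The saturation of Igfbp5 in the CH and the dim probe of Igf2 limit what these arrays can show for both genes.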
